A study of Mus musculus with 6 samples.

Results

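Prolactin and growth hormone act on cells through 2 related receptors of the class I cytokine receptor family. Ligand binding activates the kinase JAK2 that sits on the inner side of the receptor, JAK2 phosphorylates the transcription factors STAT5A and STAT5B, and these enter the nucleus and switch on target genes, among them CISH and the SOCS proteins, which bind the receptor or the kinase and shut the signal down. In the islets of Langerhans this pathway is best known for the growth of the beta cell population in pregnancy, when prolactin and placental lactogens are high. The genes described here are 10 members of this pathway: the receptors Prlr and Ghr, the kinase Jak2, the factors Stat5a and Stat5b, the feedback genes Cish, Socs1, Socs2 and Socs3, and the transcriptional repressor Bcl6. They were taken by gene name from a count table of 22923 genes. All 10 had an entry of their own, and all 10 passed the filter on low counts, as did 14082 genes in all.

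RNA was sequenced from isolated pancreatic islets of WT mice and of mice labelled FFA2 global KO, which are meant to lack FFA2 (gene name Ffar2), a receptor for short chain fatty acids, in every tissue. There were 3 libraries per genotype, and islets of 2 mice were pooled for RNA extraction. All mice were fed normal chow and no agent was given to the islets according to the labels, which state an age of 10 to 12 weeks. By the methods of the study, both genotypes came from crosses of heterozygotes on a C57BL/6J background, and its supplement describes the mice as male and gives an older age. The sources describe such a pool as one sample and give 3 samples, or a triplicate, per genotype, without stating outright that the 3 came from different mice, so p-values measure the spread between these libraries, which may be partly technical. One question the study put to these data is whether the genotypes differ in the expression of the prolactin receptor and the genes after it. No prolactin treatment is named for these islets, so the values are levels without a named hormone treatment and not measured responses to prolactin.

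The gene that was targeted did not run with the labels. Ffar2, on chromosome 7 of mm10 from 30818357 to 30823775, stood at 34.1, 27.0 and 26.5 CPM (counts scaled to the library size with TMM factors) in WT replicates 1 to 3 and at 71.8, 43.9 and 46.1 CPM in replicates 1 to 3 labelled FFA2 global KO. Its log2 fold change was 0.89 ± 0.21 (standard error, SE, edgeR, unadjusted p = 0.00391, adjusted p = 0.852). The groups did not overlap, so the libraries labelled as knockout held more reads of the gene. Reads are summed over the gene with no record of where they fell. The second group is therefore called KO-labelled, and each direction below rests on that label. Total counts used were 17067263 to 22792367 per library. Markers of beta cells (7 of 7 tested) summed to 3865 to 5563 CPM, markers of alpha cells (5 of 5) to 6063 to 8431 CPM and Sst with Hhex, of delta cells, to 2511 to 4124 CPM, so islet markers were present in all 6 libraries, while the insulin and glucagon genes are listed at 0 by the authors' processing and were not used. Markers of acinar cells, the exocrine cells around islets, differed most: 13 genes summed to 32168, 38586 and 9560 CPM in WT replicates 1 to 3 and to 11328, 78110 and 231336 CPM in KO-labelled replicates 1 to 3. In bulk RNA of this kind, fewer cells of a type and less RNA per cell cannot be told apart.

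None of the 10 genes passed the test between the genotypes as labelled. In edgeR's quasi-likelihood test with Benjamini-Hochberg adjustment over 14082 genes, 0 of 10 passed an adjusted p of 0.05, against 0% of all genes tested, and 0 of 10 passed in DESeq2 or limma-voom. Over the whole table edgeR called 0 genes, with 661 at an unadjusted p under 0.05, limma-voom called 0 and DESeq2 called 8. At an unadjusted p under 0.05 there was 1 of 10, Socs3, against 4.69% of all genes (2.58% higher and 2.12% lower). The groups overlapped in all 10 genes, while 11.2% of all genes had groups that did not overlap (5.36% higher and 5.84% lower in the KO-labelled libraries). A log2 fold change above 0 was found for 7 of the 10 and for 53.3% of all genes, with a median of 0.30 over the 10 and 0.016 over all genes. When libraries were scaled to their totals with no TMM factor, the median of all genes moved to −0.14, and 6 of the 10 were above 0 and 7 above that median. The 95% interval lay within a 2-fold change for 4 of the 10, Prlr, Ghr, Stat5b and Socs2, against 80% of all genes. For the other 6 a 2-fold change in at least 1 direction lies inside the interval.

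**Figure D1:**
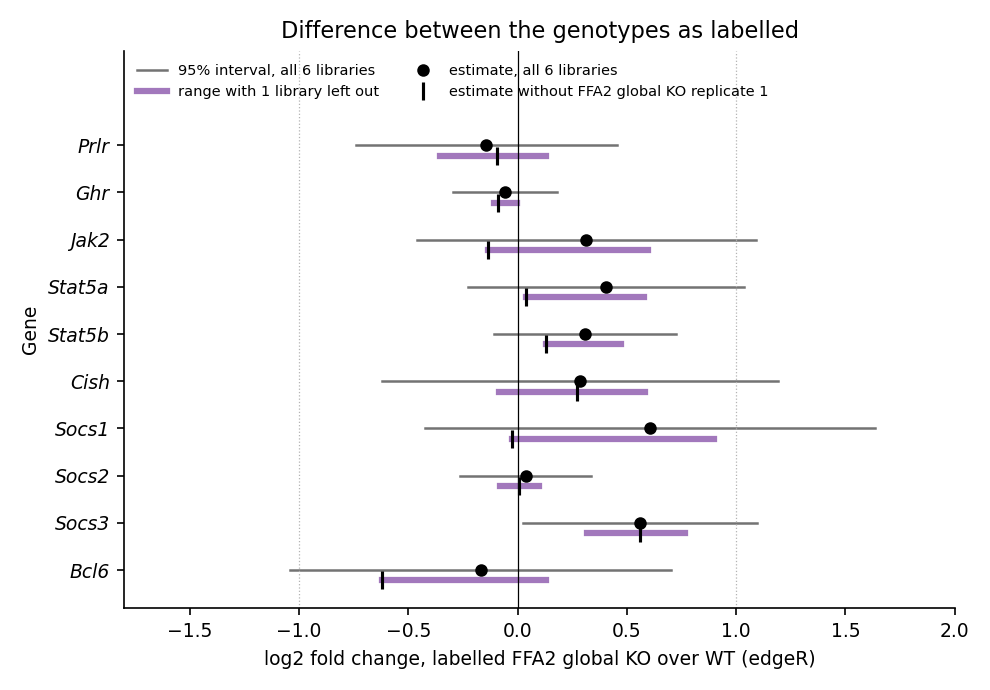
Log2 fold change of each gene, KO-labelled over WT (x axis, edgeR), with its 95% interval over the 6 libraries (grey) and, below it, the range of estimates when 1 library at a time was left out (purple, with a tick for the estimate without KO-labelled replicate 1). Ghr and Socs2 have the narrowest intervals, and the estimates of Jak2, Stat5a, Stat5b and Socs1 move towards 0 or past it without KO-labelled replicate 1.

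Neither receptor passed the test. Prlr, the prolactin receptor gene, occupies bases 10177238 to 10349180 of chromosome 15 (mm10, plus strand). It stood at 475, 294 and 288 CPM in WT replicates 1 to 3 and at 297, 408 and 253 CPM in KO-labelled replicates 1 to 3. The groups overlapped, and within each group 1 library was high, replicate 1 in WT and replicate 2 in the KO-labelled group. The log2 fold change was −0.14 ± 0.25 (SE, edgeR, adjusted p = 0.930), which corresponds to 0.906 times the WT level with a 95% interval of 0.599 to 1.37. Its sign rested on that high WT library and turned to 0.13 without WT replicate 1.

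Ghr encodes the growth hormone receptor and, in mice, also the soluble growth hormone binding protein, which is made from it by alternative splicing. It lies on the same chromosome from 3317760 to 3583230 on the minus strand. Its levels were 249, 235 and 271 CPM in WT and 253, 245 and 229 CPM in the KO-labelled libraries. Ghr was the least variable of the 10, with a coefficient of variation over the 6 libraries of 5.95%, where the median of all genes was 14.5%. The log2 fold change was −0.056 (SE 0.10, edgeR, adjusted p = 0.931), with an interval of 0.815 to 1.13 times the WT level, so a change of 1.5-fold lies outside it in both directions. Prlr exceeded Ghr in counts in each of the 6 libraries, by a ratio of 1.06 to 1.91, and the ratio was highest in WT replicate 1 and KO-labelled replicate 2.

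**Figure D2:**
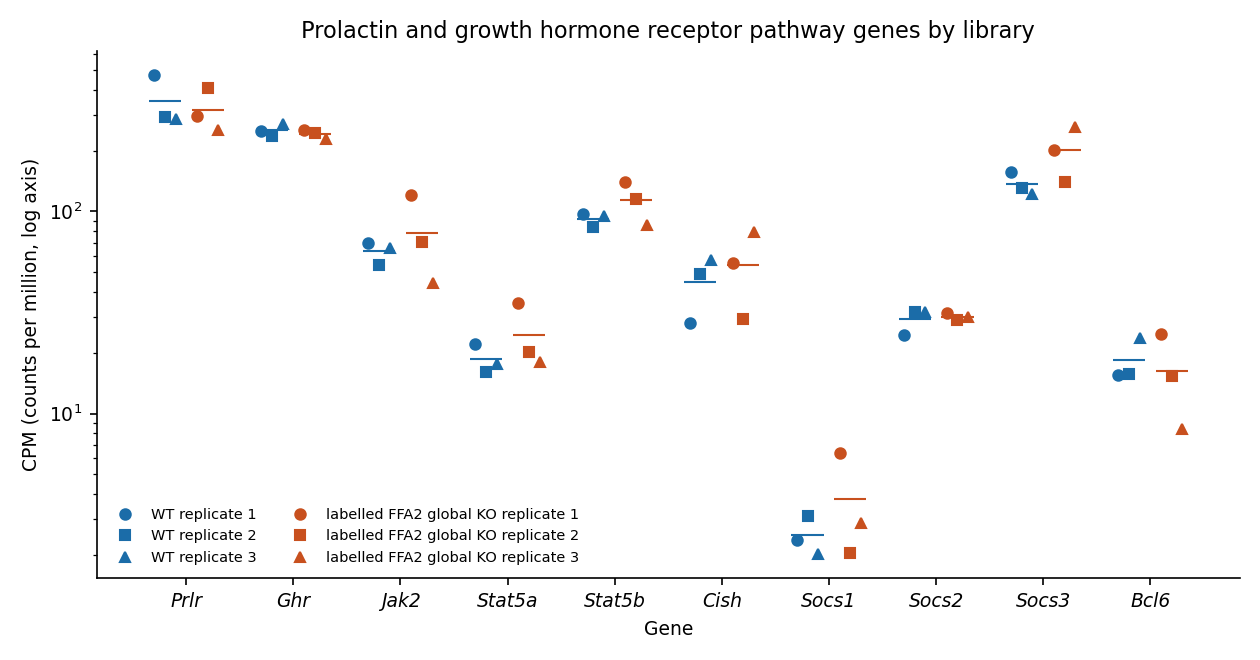
CPM of the 10 genes (log axis) in each of the 3 WT libraries (blue) and 3 KO-labelled libraries (orange), with the group mean as a line and the replicate number given by the symbol. The groups overlap for all 10 genes, and KO-labelled replicate 1 (orange circle) is the highest library for Jak2, Stat5a, Stat5b, Socs1 and Bcl6.

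Jak2, the kinase of both receptors, lies on chromosome 19 from 29251828 to 29313080. Its levels were 69.7, 54.5 and 65.9 CPM in WT and 121, 71.0 and 44.3 CPM in the KO-labelled group. The KO-labelled libraries thus held both the highest and the lowest value of the 6. The log2 fold change of 0.31 (SE 0.33, edgeR, adjusted p = 0.884) turned to −0.14 without KO-labelled replicate 1 and rose to 0.59 without KO-labelled replicate 3 (adjusted p = 0.564, edgeR).

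Stat5a and Stat5b arose by gene duplication and lie head to head on chromosome 11, Stat5b from 100780731 to 100850585 on the minus strand and Stat5a from 100859351 to 100885169 on the plus strand, with 8765 bases between them. STAT5B is the main mediator of growth hormone action in liver and STAT5A that of prolactin in the mammary gland. Stat5a stood at 22.1, 16.0 and 17.5 CPM in WT and at 35.2, 20.1 and 18.0 CPM in the KO-labelled libraries. Stat5b stood at 96.7, 83.6 and 94.8 CPM in WT and at 140.1, 115 and 85.9 CPM in the KO-labelled libraries. In both genes KO-labelled replicate 1 was the highest of all libraries, and KO-labelled replicate 3 lay within the WT range. KO-labelled replicate 2 was above all WT libraries for Stat5b and within the WT range for Stat5a.
The log2 fold changes were 0.40 for Stat5a (SE 0.27) and 0.31 for Stat5b (SE 0.18), both at adjusted p = 0.852 in edgeR. Without KO-labelled replicate 1 they were 0.039 and 0.13. Without KO-labelled replicate 3 they were 0.58 and 0.47 (unadjusted p = 0.0554 and 0.00962, adjusted p = 0.564 for both, edgeR). Stat5b had 3.98 to 5.69 times the counts of Stat5a in every library. As the sources do not say how reads that match several genes were counted, the pair could share reads. Stat5a also shares 72 bases of exon with the more abundant Stat3 on the opposite strand in the GENCODE M21 annotation, and the sources do not say whether strand was used.

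The feedback genes are the usual readout of STAT5 activity, and the motif that STAT5 dimers bind can be searched for at their start sites. RefSeq start sites of GRCm38.p6 (the assembly of mm10), with 250 bases before and 50 bases after each, were available for 9 of the 10 genes, all but Socs2, in 15 windows. The motif TTCNNNGAA, which reads the same on both strands, was found in 5 of the 15 windows (33.3%) and in 8.30% of 32851 windows of all genes. The matches lie in Cish, Socs3, Bcl6 and 1 of 3 windows of Prlr. By gene, 4 of the 9 had a match, against 9.55% of 27025 genes with a window. The list includes feedback genes chosen as targets of STAT5, so these shares are no independent support for binding. The stretches that hold them are shown 5′ to 3′ on the strand of the gene, with each match in capitals, because they are the candidate contact points of the factors whose levels are given above.
Cish, chr9:107296654-107296683, plus strand: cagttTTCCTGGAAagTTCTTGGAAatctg
Cish, chr9:107296762-107296791, plus strand: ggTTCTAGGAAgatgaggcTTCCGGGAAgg
Socs3, chr11:117969502-117969530, minus strand: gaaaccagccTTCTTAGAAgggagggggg
Bcl6, upstream start, chr16:23988952-23988980, minus strand: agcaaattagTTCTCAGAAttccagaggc
Bcl6, inner start, chr16:23981358-23981456, minus strand: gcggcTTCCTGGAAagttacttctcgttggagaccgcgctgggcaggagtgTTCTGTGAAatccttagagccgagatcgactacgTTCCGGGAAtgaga
Prlr, second start, chr15:10223786-10223814, plus strand: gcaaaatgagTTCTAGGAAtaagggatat

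The Cish pair lies at bases 1 to 9 and 12 to 20 after the RefSeq start, and 248 and 237 bases before the start of another annotated transcript that begins further in. The second pair of Cish was found outside the window, in the first exon of the GENCODE transcript that spans the RefSeq start, which holds 4 matches in all. That exon was searched for Cish alone, after the pair at its start was seen, and no share over exons of other genes was taken, so the 4 matches cannot be set against the shares of windows. Only 150 of all windows (0.457%) have at least 2 matches and 11 (0.0335%) at least 3, as the inner start of Bcl6 does. The match of Socs3 begins 154 bases before its start and that of Prlr 110 bases before. A match is a run of letters and not a measured binding site. No match was found in the windows of Ghr, Jak2, Stat5a, Stat5b and Socs1, which says only that these letters are not in those stretches.

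**Figure D3:**
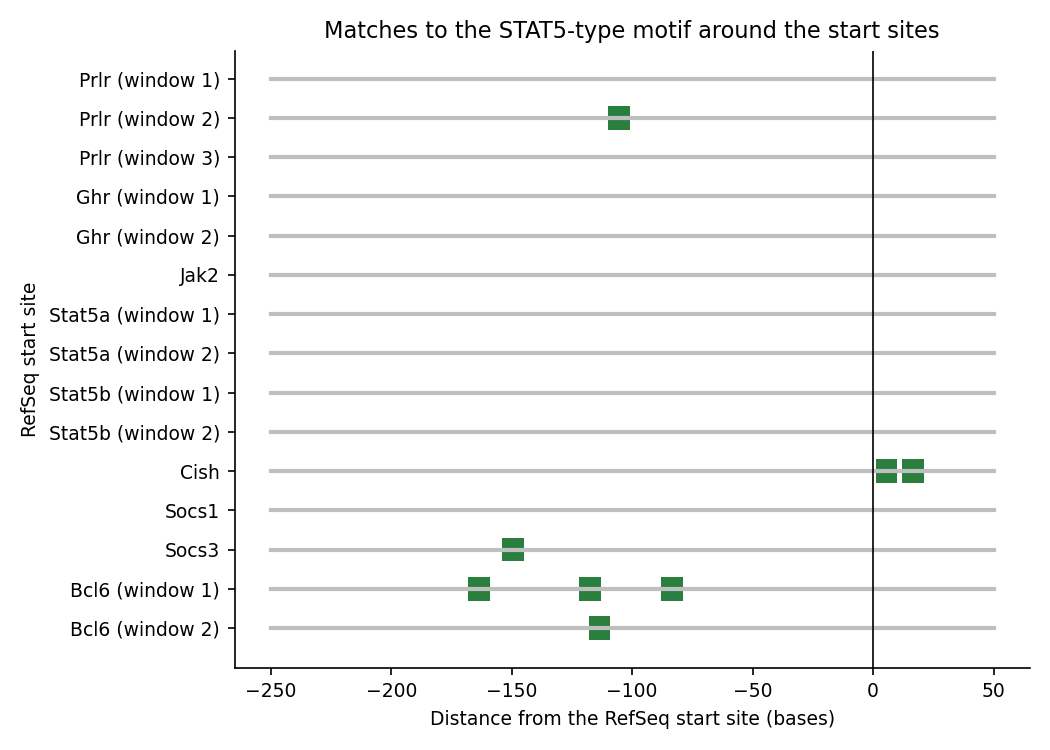
Position of each TTCNNNGAA match (green blocks) relative to the RefSeq start site (x axis, in bases, 0 at the start) in the 15 windows of 9 genes (grey lines). Matches stand in 5 windows: 2 in Cish just after the start, 1 in Socs3, 1 in a window of Prlr, and 3 and 1 in the windows of Bcl6.

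Among the 10 genes, only Socs1 had a larger coefficient of variation over the 6 libraries (52.4%) than Cish (38.5%). Cish encodes CIS, which competes with STAT5 for the phosphorylated receptor, and lies on chromosome 9 from 107296689 to 107301961. Its levels were 28.2, 49.3 and 57.2 CPM in WT and 55.3, 29.4 and 79.3 CPM in the KO-labelled libraries. The low libraries were WT replicate 1 and KO-labelled replicate 2, which are the same libraries in which Prlr was highest. The log2 fold change was 0.28 (SE 0.38, edgeR, adjusted p = 0.905), and it turned to −0.083 without KO-labelled replicate 3. Cish shares 479 bases of exon (7.46% of its exons) with an annotated antisense gene that has no entry in the count table.

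Socs2 encodes the inhibitor whose loss in mice gives excess growth through growth hormone signalling. It lies on chromosome 10 from 95411490 to 95416857. Its levels hardly moved, at 24.5, 31.7 and 32.0 CPM in WT and 31.3, 28.9 and 30.1 CPM in the KO-labelled libraries. The 3 KO-labelled values lay inside the WT range. Its log2 fold change was 0.036 (SE 0.13, edgeR, adjusted p = 0.965), with an interval of 0.833 to 1.26 times the WT level. Its sign turned to −0.083 without WT replicate 1 and to −0.12 with scaling to library totals, where the median of all genes was −0.14.

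Socs3 encodes an inhibitor of JAK kinases that responds above all to cytokines of the interleukin-6 type through STAT3, and also to prolactin and growth hormone. It lies on chromosome 11 from 117966087 to 117969366. The WT libraries stood at 157, 131 and 122 CPM and the KO-labelled libraries at 201, 140.1 and 263 CPM. KO-labelled replicates 1 and 3 were above all WT libraries, and replicate 2 lay between WT replicates 1 and 2. Socs3 had the lowest p of the 10, with a log2 fold change of 0.56 (SE 0.23, 1.47 times the WT level, interval 1.02 to 2.14, unadjusted p = 0.0426 and adjusted p = 0.852, edgeR), and it did not pass the test. Its unadjusted p was under 0.05 in 9 of 17 alternative settings, and it was 0.0552 in limma-voom. Without KO-labelled replicate 3 the log2 fold change was 0.32. That library also had the highest sum of acinar markers, at 231336 CPM. With the mean log2 level of the acinar markers as a covariate, the log2 fold change of Socs3 was 0.47 (unadjusted p = 0.0786, adjusted p = 0.309, edgeR). Its unadjusted p was thus higher than without the covariate, although its adjusted p was lower.

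Socs1 encodes an inhibitor best known from interferon signalling and was the lowest of the 10, on chromosome 16 from 10783809 to 10785536. With 35 to 155 counts per library, its levels were 2.38, 3.10 and 2.02 CPM in WT and 6.36, 2.05 and 2.88 CPM in the KO-labelled libraries. A single library, KO-labelled replicate 1, stood out, and the other KO-labelled values lay within the WT range. Its fitted log2 difference of 0.61 (SE 0.44, edgeR, adjusted p = 0.852) was −0.026 without that library.

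Bcl6 is a repressor whose level prolactin raises in islets, where it has been described as lowering the tumour suppressor gene Men1. It lies on chromosome 16 from 23965052 to 23988612. Levels were 15.6, 15.8 and 23.6 CPM in WT and 24.7, 15.3 and 8.43 CPM in the KO-labelled libraries. As with Jak2, the KO-labelled group held both the highest value, in replicate 1, and the lowest, in replicate 3. Its fitted log2 difference was −0.17 (SE 0.37, edgeR, adjusted p = 0.947), and it ran from −0.62 without KO-labelled replicate 1 to 0.13 without KO-labelled replicate 3. Men1 itself was at 59.5, 60.8 and 50.4 CPM in WT and 54.5, 61.2 and 65.9 CPM in the KO-labelled libraries, with overlapping groups.

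Within the KO-labelled group, replicates 1 and 3 held many of the extremes. KO-labelled replicate 1 was the highest of the 6 libraries for 5 of the 10 genes (Jak2, Stat5a, Stat5b, Socs1 and Bcl6), against 29% of all genes tested, and the lowest for 0 of 10, against 27.9% of all genes. KO-labelled replicate 2 was the highest for 0 of 10 (9.44% of all genes) and replicate 3 for 2 of 10, Cish and Socs3 (21.9% of all genes). KO-labelled replicate 3 was the lowest for 4 of the 10 (Prlr, Ghr, Jak2 and Bcl6), against 20.8% of all genes. Relative to the WT mean, the log2 ratio of KO-labelled replicate 1 was 0.93 for Jak2, 0.92 for Stat5a, 0.61 for Stat5b and 1.35 for Socs1, while it was −0.25 for Prlr and 0.0040 for Ghr. Socs1 was there at 2.58 times the mean of the other KO-labelled libraries. Of the 10 genes, 8 had a coefficient of variation above the median of all genes, with a median of 32.4%. KO-labelled replicates 1 and 3 also had the lowest and the highest sum of acinar markers of the KO-labelled group, 11328 and 231336 CPM.
With the acinar level as a covariate, log2 fold changes were 0.56 for Jak2, 0.58 for Stat5a and 0.46 for Stat5b, at unadjusted p of 0.0105, 0.0173 and 0.00365 and adjusted p of 0.168, 0.188 and 0.146 from edgeR. With this covariate 2691 of all genes tested were at an unadjusted p under 0.05, where there were 661 without it. The sum of myeloid markers (7 tested) ran from 68.4 to 104 CPM in WT and from 62.6 to 69.5 CPM in the KO-labelled libraries. Of 6 lymphoid markers, only Cd79a passed the filter, and among markers of liver and fat, tissues rich in these receptors, only Alb passed, at 0.770 to 5.28 CPM. Stromal markers (4 tested) summed to 34.2, 228 and 68.3 CPM in WT and to 21.0, 37.9 and 161 CPM in the KO-labelled libraries, lowest in KO-labelled replicate 1. The part of these cell types in the levels of the 10 genes was not tested further.

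**Figure D4:**
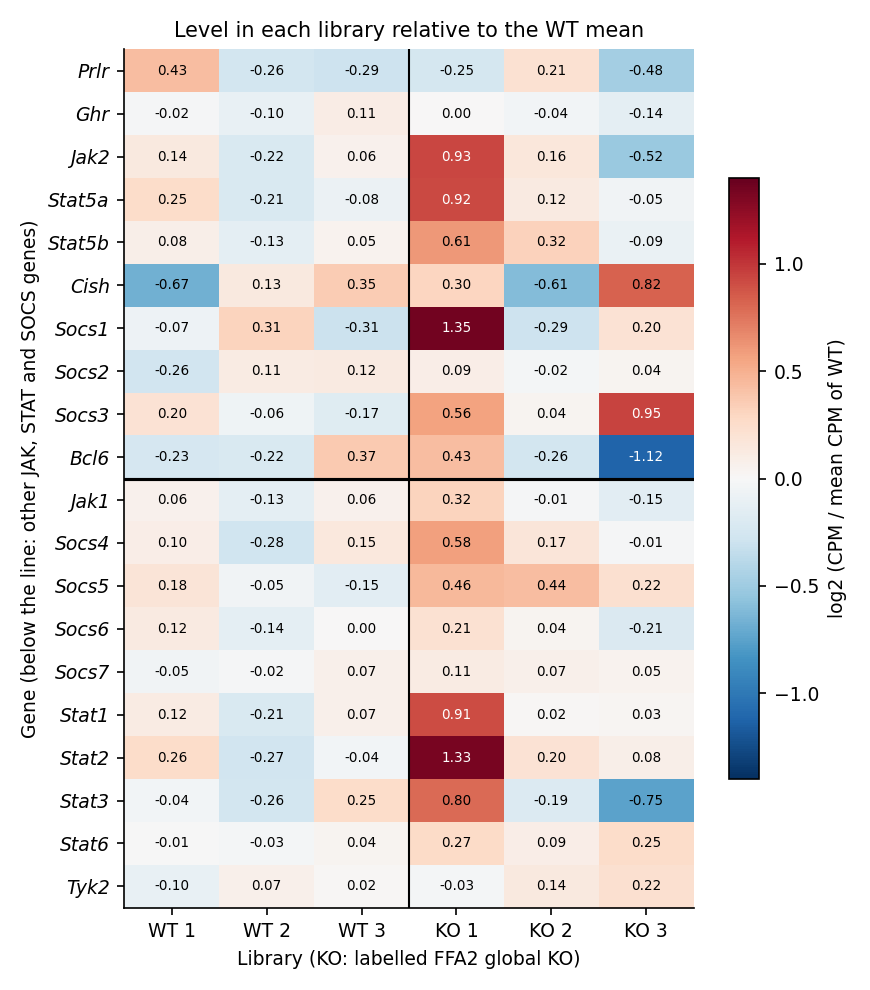
Log2 ratio of the CPM of each library (columns) to the mean of the WT libraries, for the 10 genes (above the line) and the 10 tested genes of the list of other JAK, STAT and SOCS genes (below). KO-labelled replicate 1 is the highest library for 5 of the upper 10 and 9 of the lower 10 genes, all of the latter except Tyk2.

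The other kinases, STAT factors and SOCS genes were often highest in KO-labelled replicate 1, by margins that differed between genes. Of 12 genes on this list 10 were tested, 0 passed in edgeR, and 1, Socs5, was at an unadjusted p under 0.05. All 10 had a log2 fold change above 0 (median 0.16, against 0.016 over all genes), which was 6 of 10 with scaling to library totals, where all 10 still lay above the median of all genes, and KO-labelled replicate 1 was the highest library for 9 of them, all except Tyk2. For Socs5, Stat6 and Socs7 the next library was close, at 37.4 against 37.8, 47.8 against 48.3 and 91.7 against 94.4 CPM. Stat3, the factor downstream of interleukin-6, stood at 454, 390.3 and 557 CPM in WT and at 812, 409 and 277 CPM in the KO-labelled libraries. Like Jak2 and Bcl6, it spanned the whole range within the KO-labelled group. Stat2, a mediator of interferon signalling, was at 25.7, 17.8 and 20.9 CPM in WT and at 54.0, 24.7 and 22.7 CPM in the KO-labelled libraries, again high in replicate 1 alone. Socs5 was at 31.2, 26.7 and 24.9 CPM in WT and at 37.8, 37.4 and 32.2 CPM in the KO-labelled libraries, without overlap. Its log2 fold change was 0.38 (SE 0.12, unadjusted p = 0.0176, adjusted p = 0.852, edgeR), and Stat6, also without overlap, had one of 0.21 (SE 0.092, edgeR, adjusted p = 0.852).

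Other class I receptors that share these kinases gave no called gene either, with 0 of 14 tested past the threshold, 1 at an unadjusted p under 0.05 and a median log2 fold change of −0.084 (−0.24 with scaling to library totals, where the same number, 5, lay above the median of all genes). The gene with that p was Il6st, which encodes gp130, the shared receptor chain of interleukin-6 type cytokines. It stood at 113, 96.8 and 105 CPM in WT and at 165, 128 and 122 CPM in the KO-labelled libraries, so all KO-labelled values were above all WT values. Its log2 fold change was 0.40 (SE 0.14, unadjusted p = 0.0240, adjusted p = 0.852, edgeR), and 0.25 without KO-labelled replicate 1.
Among 16 phosphatases, PIAS proteins and adaptors of these receptors 0 passed and 0 were at an unadjusted p under 0.05, with a median log2 fold change of 0.044 (−0.093 with scaling to library totals, with 10 above the median of all genes under both scalings). The lowest p of this list were those of the insulin receptor substrate Irs1 (log2 fold change 0.55, SE 0.28, adjusted p = 0.852, edgeR) and the phosphatase Ptpn6 (−0.16, SE 0.10, adjusted p = 0.852, edgeR). Without KO-labelled replicate 1 these were 0.30 and −0.10, and Irs1 was at 0.81 without KO-labelled replicate 2.

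Genes that prolactin or pregnancy is known to raise in islets gave no called gene. Of 17 genes 13 were tested, 0 passed in edgeR, 0 were at an unadjusted p under 0.05, 6 had a log2 fold change above 0 (4 with scaling to library totals, where 6 still lay above the median of all genes), and the median was −0.13. Tph1, Lrrc55, Foxm1 and Ccnd1 were not tested, so these counts do not cover them. Of the 17, 15 had an entry under exactly their own name. The lowest p were those of Tnfrsf11b, which encodes osteoprotegerin, with a log2 fold change of 0.52 (SE 0.22, edgeR, adjusted p = 0.852), and Slc2a2, the glucose transporter of beta cells, with −0.28 (SE 0.13, edgeR, adjusted p = 0.852). Slc2a2 stood at 723, 707 and 776 CPM in WT and at 643, 651 and 527 CPM in the KO-labelled libraries, without overlap. Of 3 genes that prolactin or pregnancy lowers, 0 passed, and Cdkn2c, an inhibitor of the cell cycle, was at 6.69, 6.44 and 6.69 CPM in WT and at 3.70 to 4.93 CPM in the KO-labelled libraries. Its log2 fold change was −0.56 (SE 0.18, unadjusted p = 0.0172, adjusted p = 0.852, edgeR). Men1 (0.089) and Cdkn1b (0.027) were close to 0, and 2 of the 3 lay above the median of all genes under both scalings, although 0 of 3 were above 0 with scaling to library totals.
Immediate early genes, which rise when islets are handled, had 0 of 12 past the threshold, 0 at an unadjusted p under 0.05 and a median of 0.16, with 10 of 12 above 0. With scaling to library totals the median was −0.020, 5 were above 0 and 8 lay above the median of all genes, against 10 with TMM. Fos, the gene of lowest p among them, was at 1231, 747 and 717 CPM in WT and at 924, 1237 and 1580 CPM in the KO-labelled libraries, and Jun had the same order of libraries (log2 fold changes 0.47 and 0.46, adjusted p = 0.852 each, edgeR). Both values moved with single libraries and with the acinar level: Fos was at 0.26 without KO-labelled replicate 3, 0.77 without WT replicate 1 and 0.21 with the acinar covariate, and Jun at 0.25, 0.74 and 0.14. For 0 of these 12 genes was KO-labelled replicate 1 the highest library.

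Levels per length put the pathway in order. On the scale of CPM per kilobase of annotated exon, WT means ran from 47.3 for Socs3 over 27.8 for Ghr, then Prlr, 16.6 for Stat5b, 12.6 for Jak2, 6.99 for Cish, 3.08 for Socs2, 2.74 for Bcl6 and 2.60 for Stat5a to 0.859 for Socs1. Neighbours in this order overlapped between WT libraries for Ghr and Prlr, with all Ghr values inside the range of Prlr (18.8 to 31.0), and for Socs2, Bcl6 and Stat5a (2.57 to 3.35, 2.33 to 3.53 and 2.24 to 3.10). The other neighbours did not overlap in WT, among them Stat5b and Jak2. The authors' pooled RPKM for WT, which weight the isoforms in use, put Ghr first at 65.2, before Socs3 at 41.2 and Prlr at 28.4, and give Cish (17.1) and Socs2 (11.1) a higher place, next to Stat5b (14.5) and Jak2 (9.65). In WT, on both scales the receptors were above the kinase, Stat5b was above Stat5a and Socs1 was the lowest.

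**Figure D5:**
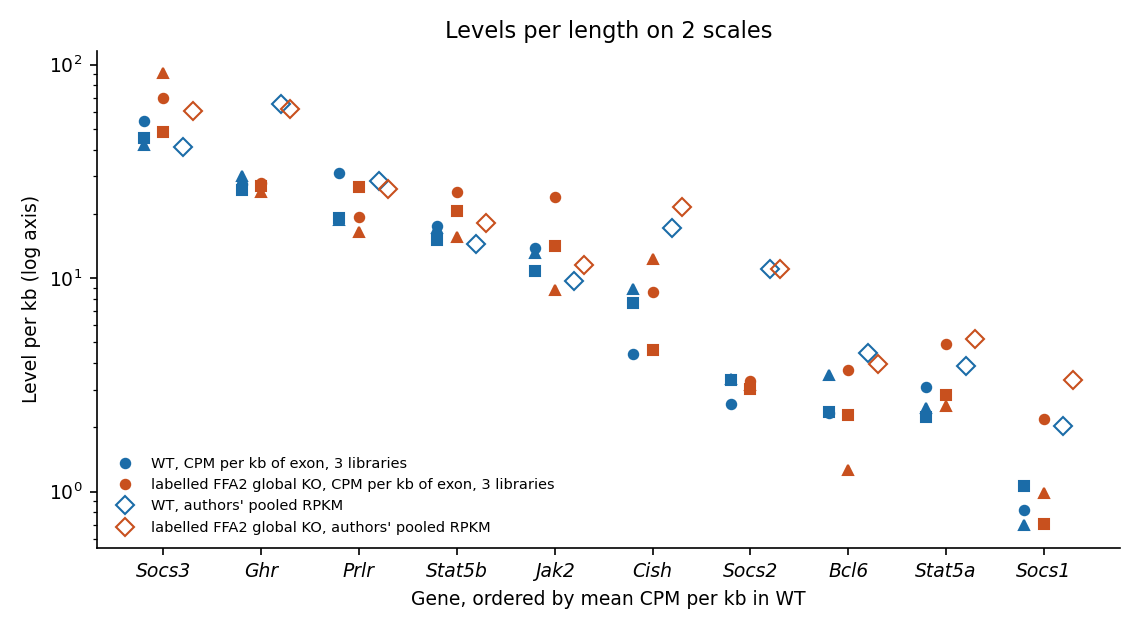
Level per kilobase (log axis) of the 10 genes, as CPM per kilobase of annotated exon in each of the 3 WT (blue) and 3 KO-labelled (orange) libraries, and as the authors' RPKM pooled per genotype (open diamonds). By group mean, Socs3, Ghr and Prlr are the highest on both scales and Socs1 the lowest, but in KO-labelled replicate 1 Stat5b (25.3) and Jak2 (24.0) stand above Prlr (19.4), and Cish and Socs2 stand higher on the authors' scale.

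The genes whose levels followed a member most closely were sought among 9557 other genes with a mean of at least 10 CPM, by the root mean square difference of log2 CPM over the 6 libraries after each gene was centred on its own mean. For Prlr these were Vdr, which encodes the vitamin D receptor, at a difference of 0.11, then Serpina7 (0.12) and Hilpda (0.13), where the spread of Prlr itself was 0.32 on the same scale. Vdr was at 244, 196 and 173 CPM in WT and at 184, 252 and 150.3 CPM in the KO-labelled libraries, high in the libraries that were high in Prlr. For Cish, Irf1 (0.18) and Arc (0.18) were among the closest, with a spread of 0.53 for Cish itself. Irf1, a transcription factor of the interferon response, stood at 217, 356 and 381 CPM in WT and at 394, 214 and 418 CPM in the KO-labelled libraries, low in the same pair as Cish. For Socs3 they were Entpd1 (0.14), Scel (0.17) and Arhgap31 (0.17), with a spread of 0.39 for Socs3. These matches are descriptions over 6 libraries that share depth and tissue makeup, with no test.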

How the data were processed

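RNA-seq of 6 islet libraries was used. The authors aligned reads with TopHat2 (2.0.8b) and ran Cuffdiff (2.1.1) on mm10, per the submitters' processing notes. How reads were counted per gene is not given in the sources used here. The authors deposited estimated counts per gene, not normalized, and a table of RPKM pooled per genotype, with their fold changes, test statistics and p-values, of which only RPKM, positions and the caller's status were used. Names with several values (158) and genes the caller skipped (15) were left out, which left 22750. Estimated counts were rounded, filtered with filterByExpr (minimum count 10, minimum total 15), scaled by TMM and tested with edgeR 4.0.16 in R 4.3.3 (quasi-likelihood, genotype only, 2-sided, adjusted p of 0.05). The fit was also run on simulated counts with the same dispersion for every gene. Apart from depth and the set fold changes, expected levels there were the same in all libraries. That run therefore cannot show how the test behaves when libraries differ in acinar markers. DESeq2 1.42.0, limma-voom (limma 3.58.1), other scalings and filters, a block for replicate number, leaving out each library, an acinar covariate and the genes left out put back were alternatives. Log2 CPM used a prior count of 2. Members and gene lists were chosen with earlier results of these data known. Named are the 10 members, Ffar2, the 2 genes of lowest p per list, and 3 like genes each for Prlr, Cish and Socs3. Of the genes this rule names, 2 are not reported here. Stat3, Stat2, and the values of Men1 and Cdkn1b were named after they were seen. Exon lengths and overlaps are from GENCODE M21 and promoters from RefSeq. Every pair of libraries differed by more than sampling noise (lowest chi-square per gene 27.6).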

Additional observations from a re-analysis of the deposited data

How the results depend on the processing

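Over 17 alternatives, 0 of 10 genes of the pathway passed an adjusted p of 0.05, and 0 genes of the fixed lists did. Genes called over the whole table numbered 1 with no filter, 8 in DESeq2 and 11 with the skipped genes kept as listed. Of 170 log2 fold changes of the 10 genes under alternatives, 10 turned sign, in 7 genes, while Stat5a, Stat5b and Socs3 kept theirs. Besides the left-out libraries, these were Ghr (0.0020) and Bcl6 (0.17) with the acinar covariate and Socs2 (−0.12) with total-count scaling, and Men1 had −0.077 with total-count scaling and −0.015 with the acinar covariate. The cause was not tested. With 1 library left out, log2 fold changes ran from −0.36 to 0.13 for Prlr, −0.14 to 0.59 for Jak2, −0.083 to 0.58 for Cish, −0.026 to 0.90 for Socs1, −0.083 to 0.098 for Socs2 and −0.62 to 0.13 for Bcl6. Genes at an unadjusted p under 0.05 numbered 225 without WT replicate 2, 242 without WT replicate 3 and 1238 without KO-labelled replicate 3. Of the 10 genes, 0 to 2 were at such a p with a library left out. Libraries with the same replicate number did not vary together (correlations of deviations over genes 0.11, −0.14 and −0.34). The highest correlation was 0.59, between KO-labelled replicate 3 and WT replicate 2. Over libraries that differ widely in acinar markers, these correlations cannot show whether equal numbers share a preparation. With the replicate block 0 genes passed, and the log2 fold change of Socs3 was 0.52 (adjusted p = 0.994, edgeR).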
